A study of Mus musculus with 7 samples.

Results

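The interferon-induced genes and their regulatory factors were examined in mouse heart. The members were the genes whose symbols matched a fixed naming pattern (Ifi with a digit, Ifit, Irgm, Igtp, Iigp, Gbp, Oas, Isg, Irf with a digit, STAT factors of interferon signalling, Ifnar and Ifngr), 72 of the 14641 genes in the count table. They comprised 4 interferon receptor subunits, 2 STAT factors, 9 interferon regulatory factors (IRFs), 3 IRF2-binding proteins, 4 immunity-related GTPases (IRGs), 11 guanylate-binding proteins (GBPs), 9 genes of the Ifi200 family, 11 Ifit and Ifitm genes, 8 oligoadenylate synthetases, 3 Isg genes and 8 other Ifi genes. Isg20l2 matched the pattern by its name alone.

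RNA was sequenced from whole hearts of 4 non-transgenic littermates (NTG, replicates 1 to 4) and of 3 mice that carried full-length Nrf2 under the αMHC promoter, which is active in cardiomyocytes (mNrf2-TG, replicates 17 to 19). All mice were male and of the C57BL/6J background, no other allele or treatment was given for either group, and 1 library was made per mouse. The labels gave an age of 6 months for the mNrf2-TG mice, and the text of the series gave 7 to 8 months for the study. The libraries held 6534684 to 8405857 counts. The transgene's own gene, Nfe2l2 (Nrf2), was counted 729 to 1392 times per NTG library and 10912 to 12839 times per mNrf2-TG library. Summed cardiomyocyte markers were abundant in every library but lower in the transgenic hearts, at 629920 to 656460 normalized counts against 743550 to 782160, and 4 of 8 passed the test described below, all lower. Macrophage markers (4470 to 6053 against 2863 to 3901, 8 of 13 higher) and fibroblast markers (12251 to 13149 against 8438 to 10916, 5 of 7 higher) were higher, and endothelial markers were lower (7144 to 7647 against 8288 to 8918, 3 of 9 lower and 1 higher). The part of these cell types in the levels of the members was not tested.

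Interferons signal through cell surface receptors, IFNAR for the type I interferons and IFNGR for interferon gamma, and through Janus kinases that phosphorylate STAT factors. STAT factors join IRF9 on the interferon-stimulated response element (ISRE), and STAT dimers bind the gamma-activated site (GAS). The induced genes encode GTPases, nucleic acid sensors and antiviral effectors, and hearts express many of them without infection, from cardiomyocytes as well as from endothelial, stromal and immune cells.

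A gene was called higher or lower when its adjusted p (edgeR's quasi-likelihood test, Benjamini-Hochberg over 14637 genes) was under 0.05. Levels are given as normalized counts, which are counts scaled by TMM (trimmed mean of M-values) to the mean library size. Log2FC is the log2 ratio of mNrf2-TG to NTG. In whole tissue, fewer cells of a type and less RNA per cell cannot be told apart.

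Of the 72 members, 12 were called, 6 higher and 6 lower in mNrf2-TG hearts. That is 16.7% of the members, against 17.2% of all genes tested, so the count lay near the background. Under a second criterion, a fold above 2 with a p under 0.05 before adjustment, 16 members passed, 22.2% against 5.65% of all genes. Of these, 13 were higher (3.57% of all genes) and 3 lower (2.08% of all genes). The groups did not overlap in 17 members, against 29.7% of all genes, with 9 higher (15.0% of all genes) and 8 lower (14.7%). The median Log2FC was 0.07 over the members and 0.00 over all genes tested.

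In these totals, 1 of the 3 transgenic libraries stood apart from the others. Over the 63 members with a mean count of 10 or more, the median deviation from each gene's mean on the log2 scale was 0.58 in mNrf2-TG replicate 18. It was -0.29 in replicate 17 and -0.27 in replicate 19, and between -0.07 and 0.05 in the 4 NTG libraries. The same median over all genes was within 0.01 of 0 in every library. Replicate 18 was the highest of the 7 libraries in 36 of the 63 members (57.1%), against 15.3% of 12069 genes. In 14 members it exceeded every other library by more than 2-fold, which was 22.2% of the members against 0.563% of all genes, and no other library did so in any member.

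**Figure D1:**
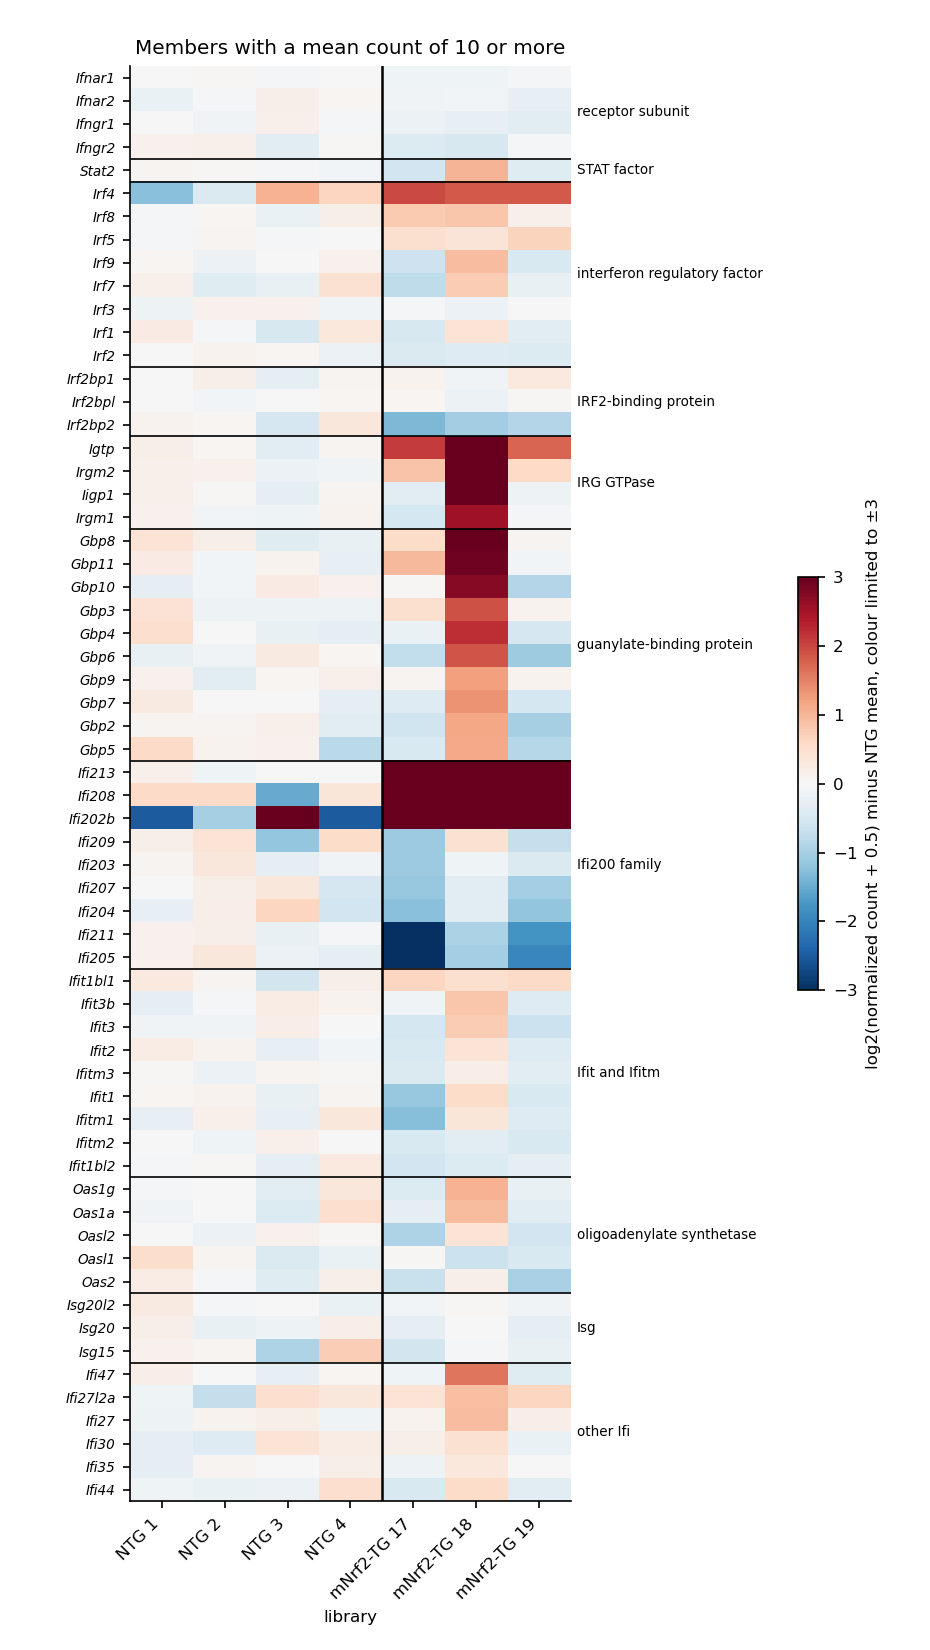
Log2 of the normalized count (plus 0.5) of each of 62 members, in rows grouped by role, minus the gene's mean in NTG, in each of the 7 libraries (columns), with the colour limited to 3 in either direction. The column of mNrf2-TG replicate 18 is red over the Stat2, IRG and GBP rows, while replicates 17 and 19 are pale or blue there except at Igtp, Irgm2 and, in replicate 17, Gbp11, and several Ifi200 rows are strongly red or blue in all 3 transgenic libraries.

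The comparisons below are given over all 7 libraries, with values for the 6 libraries without replicate 18 beside most of them. Replicate 18 was set apart because of its values on these genes, so the counts without it describe the other libraries and are no independent test. Without it, 21 members were called (29.2%, against 10.2% of all genes), 5 higher and 16 lower. The share called lower was 22.2% of the members against 5.11% of all genes, and the share called higher 6.94% against 5.12%. The median Log2FC of the members was -0.26, against -0.01 over all genes, and the number of members with a positive Log2FC went from 40 to 21. The groups then did not overlap in 36 members, against 37.6% of all genes, with 26 lower (18.5% of all genes) and 10 higher (19.2%). The second criterion, with a fold above 2, was met by 10 members, 13.9% against 4.89% of all genes. Of the members called over all libraries, 11 were also called without replicate 18, and the 10 called only without it were all lower.

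The 4 IRGs are GTPases that interferon gamma induces and that act on the vacuoles of intracellular microbes. Igtp (Irgm3; chr11:58199556-58207591, plus strand, GRCm38) had 139 to 197 normalized counts in the NTG libraries, 748 in mNrf2-TG replicate 17, 8536 in replicate 18 and 585 in replicate 19. All 3 transgenic libraries lay above every NTG library, and replicate 18 was 12.8 times the mean of the other transgenic libraries. Its Log2FC was 4.23 ± 0.83 (SE, adjusted p = 0.00853, edgeR's quasi-likelihood test), and without replicate 18 it was 1.93 ± 0.14 (adjusted p = 0.000146). DESeq2, tried as an alternative, gives no p for a gene with 1 count far from the rest, and gave none for 6 members, among them Igtp, Irgm2, Iigp1, Gbp4 and Gbp6.

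Irgm2 (chr11:58199618-58222782), whose annotated span overlaps that of Igtp on the same strand, had 250 to 313 normalized counts in NTG and 514, 5250 and 425 in mNrf2-TG replicates 17, 18 and 19. The groups did not overlap here either. The Log2FC was 2.86 ± 0.74 (adjusted p = 0.0269, edgeR), and 0.73 ± 0.12 without replicate 18 (adjusted p = 0.0102). The call was lost without NTG replicate 1 (adjusted p = 0.0658), NTG replicate 2 (0.0674) or NTG replicate 4 (0.0605), and with limma-voom (Log2FC 1.89, adjusted p = 0.123). The annotated exons of Igtp and Irgm2 overlap by 162 bases, and 11.8% of the 50-base stretches of Igtp transcripts also occur in another gene, mostly Irgm2, so part of the reads could have been assigned to either.

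Iigp1 (Irga6), another GTPase of vacuole membranes, had 526 to 704 normalized counts in NTG and 502, 5623 and 565 in mNrf2-TG replicates 17, 18 and 19. Irgm1, which regulates the other IRGs, had 213 to 253 in NTG and 162, 1368 and 229 in mNrf2-TG. For both genes replicate 18 alone was above the NTG range, and neither was called (adjusted p = 0.104 and 0.152). Without replicate 18 their Log2FC values turned from 1.81 to -0.25 and from 1.33 to -0.25. Of the normalized counts of the 4 IRGs summed over the 3 transgenic libraries, 84.8% came from replicate 18.

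The promoter sequences of the induced GTPases show the elements that interferon signalling uses. They are printed from the RefSeq windows of GRCm38.p6 that run from 250 bases before to 50 bases after each start. In each line the capitals mark matches to the ISRE core (GAAA, any 2 bases, then GAAA, on either strand) or to the GAS (TTCNNNGAA, the same on both strands). Irf1, a factor that interferon gamma induces, is shown beside them for its GAS. The segments lie at chr11:58199496-58199546 (Igtp), chr11:58214887-58214937 (Irgm2), chr3:142530215-142530307 (Gbp7) and chr11:53769909-53769947 (Irf1), all on the plus strand.
Igtp: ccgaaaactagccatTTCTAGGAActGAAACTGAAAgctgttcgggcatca
Irgm2: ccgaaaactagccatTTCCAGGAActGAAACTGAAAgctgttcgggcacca
Gbp7: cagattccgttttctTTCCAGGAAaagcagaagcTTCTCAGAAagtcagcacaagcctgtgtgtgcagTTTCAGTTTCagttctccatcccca
Irf1: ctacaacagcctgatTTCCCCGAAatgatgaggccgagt

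The Igtp and Irgm2 segments were identical in 49 of 51 bases, each with a GAS followed by an ISRE core. Over the members, 57 had at least 1 window in RefSeq and these had 69 windows together. Those with none included Iigp1, Ifi204, Gbp4, Gbp6, Gbp8, Gbp9, Gbp10, Gbp11, Oas1b, Oas2, Ifi27, Ifi27l2a and Ifi27l2b. An ISRE core was found in 42.0% of the members' windows, against 3.19% of the 14879 windows of genes in the count table. A GAS was found in 24.6% against 6.97%. The core of the antioxidant response element that Nrf2 binds (TGACNNNGC, either strand) was found in 18.8% against 14.0%, in 13 members. These included Igtp and Irgm2, called higher, and Ifi205, Ifi207 and Ifi211, called lower. The windows of Ifi208 and Ifi213, called higher, held none. By role, the ISRE core stood in all 3 IRGs with a window, 5 of 5 GBPs, 6 of 8 Ifi200 genes, 7 of 11 Ifit and Ifitm genes, 4 of 6 oligoadenylate synthetases, 1 of 8 IRFs and in none of the 4 receptor subunits. A match describes these letters only, and no binding was measured.

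The 11 GBPs, large GTPases that attack the membranes of intracellular microbes and activate inflammasomes, were all highest in mNrf2-TG replicate 18, and none was called over all libraries. With DESeq2 over the same libraries, Gbp8 (adjusted p = 0.0182) and Gbp11 (adjusted p = 0.0239) passed the threshold. Gbp10 had 163 to 237 normalized counts in NTG and 206, 1343 and 110 in mNrf2-TG replicates 17, 18 and 19. Gbp6 had 333 to 463 in NTG and 233, 1436 and 183 in mNrf2-TG. For both, replicates 17 and 19 were within or below the NTG range and replicate 18 was above it.

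Gbp2 had 319, 319, 335 and 236 normalized counts in NTG replicates 1 to 4 and 197, 667 and 150 in mNrf2-TG. Replicate 18 was the highest and the other transgenic libraries the lowest of the 7. Its Log2FC was 0.16 ± 0.42 (adjusted p = 0.833, edgeR) over all libraries and -0.81 ± 0.17 without replicate 18 (adjusted p = 0.0220). Gbp6 went from 0.66 ± 0.58 (adjusted p = 0.470) to -0.91 ± 0.16 (adjusted p = 0.0109), and these were the GBPs called without replicate 18. Gbp3 had 164, 109, 109 and 109 in NTG and 168, 452 and 129 in mNrf2-TG, with a Log2FC of 1.03 ± 0.38 (adjusted p = 0.0889) that was called only without mNrf2-TG replicate 19 (1.35, adjusted p = 0.0359) and was 0.28 without replicate 18 (adjusted p = 0.414).

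The median Log2FC of the 11 GBPs was 1.02 and became -0.38 without replicate 18, which held 70.6% of their summed normalized counts in the transgenic group. Gbp6 and Gbp10 share much of their sequence with each other and with the predicted gene Gm43302, in 70.7% and 84.1% of their 50-base stretches, so their separate levels are uncertain.

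**Figure D2:**
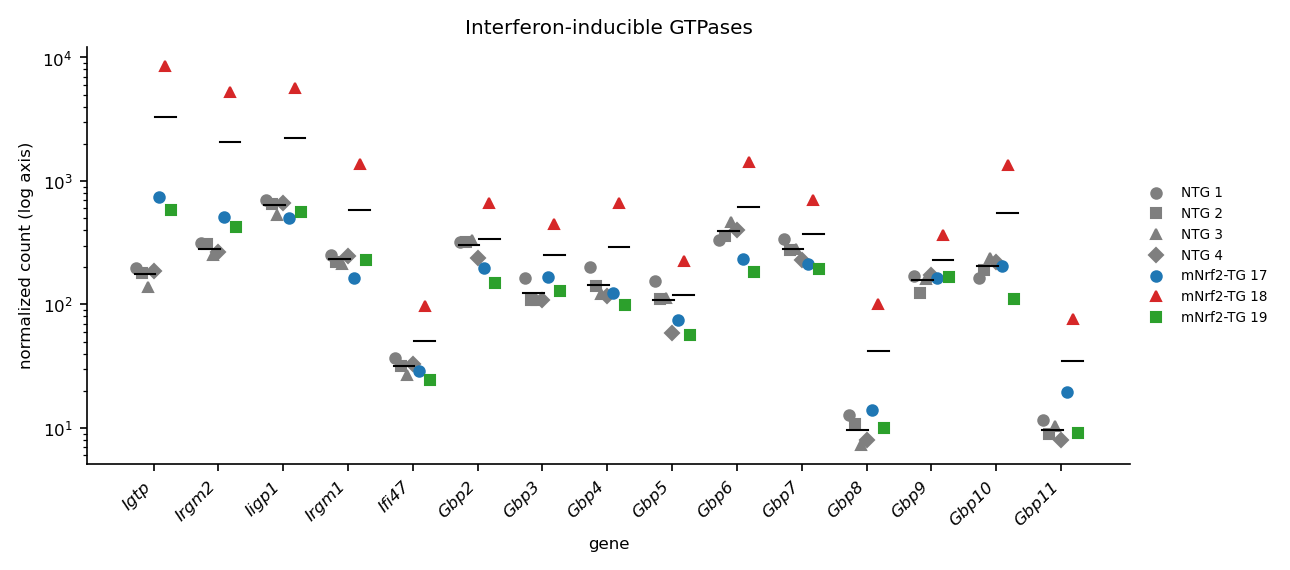
Normalized counts (log axis) of the 4 IRGs, the GTPase Ifi47 and 10 GBPs in each library, with NTG in grey, the mNrf2-TG replicates 17, 18 and 19 in blue, red and green, and black lines at the group means. The red triangle of replicate 18 is the top point of every gene, and the blue and green points both lie above the NTG range only at Igtp and Irgm2 among the genes shown, from a highest NTG value of 197 to at least 585 at Igtp.

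The 14 members in which replicate 18 exceeded every other library by more than 2-fold included Igtp, Irgm1, Irgm2, Iigp1, Ifi47 and 8 GBPs (Gbp3, Gbp4 and Gbp6 to Gbp11). Of the 14, 2 were called over all libraries and 3 without replicate 18, against 17.2% and 10.2% of all genes. Among all genes, 68 met that condition in replicate 18. Another 12 of them were genes of the interferon pathway lists given below, namely B2m, Cd274, Ciita, Lgals3bp, Nlrc5, Psmb8, Psmb9, Tap1, Tgtp1, Tgtp2, Uba7 and Xaf1, and 16 of the other 42 carried H2 symbols of the major histocompatibility complex.

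Stat2, a factor of type I signalling, had 167 to 190 normalized counts in NTG and 119, 360 and 139 in mNrf2-TG replicates 17, 18 and 19. Its Log2FC turned from 0.21 ± 0.32 (adjusted p = 0.695, edgeR) over all libraries to -0.46 ± 0.12 (adjusted p = 0.0439) without replicate 18. Irf9, its DNA-binding partner, had 145 to 181 in NTG and 107, 311 and 120 in mNrf2-TG, and turned from 0.12 ± 0.32 (adjusted p = 0.835) to -0.54 ± 0.13 (adjusted p = 0.0362). Stat2 and Irf9 were thus lower than in NTG in replicates 17 and 19 and higher in replicate 18.

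The receptors did not follow that pattern, since none of the 4 subunits was highest in replicate 18. Ifngr1, the ligand-binding chain for interferon gamma, had 608, 571, 675 and 594 normalized counts in NTG and 540, 513 and 481 in mNrf2-TG. Every transgenic library lay below every NTG library, but the Log2FC of -0.26 ± 0.08 missed the threshold (adjusted p = 0.0552, edgeR) and passed it only with a stricter filter on low counts (adjusted p = 0.0499). Ifngr2, its signalling partner, had 1531 to 2093 in NTG, with replicate 3 lowest, and 1421, 1362 and 1828 in mNrf2-TG. The Log2FC was -0.31 ± 0.13 (adjusted p = 0.131), and without NTG replicate 3 it was -0.41 (adjusted p = 0.0239).

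Ifnar1, a chain of the type I receptor, had 241 to 256 normalized counts in NTG and 226, 227 and 241 in mNrf2-TG (Log2FC -0.10 ± 0.08, adjusted p = 0.391, edgeR). Ifnar2, the other chain, had 275 to 357 in NTG and 266 to 299 in mNrf2-TG (Log2FC -0.15 ± 0.10, adjusted p = 0.348). Without replicate 18 the Log2FC was -0.26 for Ifngr1, -0.23 for Ifngr2, -0.09 for Ifnar1 and -0.18 for Ifnar2, and none was called. Per kilobase of exon the NTG means were 507 normalized counts for Ifngr2, 215 for Ifngr1, 94.6 for Ifnar2 and 41.8 for Ifnar1, an order that was the same in mNrf2-TG at 408, 180, 85.5 and 38.9.

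Of the 9 IRFs, 1 was called higher and 1 lower over all libraries, against 8.48% and 8.73% of all genes tested. Irf2, a repressor that competes with Irf1, had 270, 285, 279 and 236 normalized counts in NTG and 197, 203 and 200 in mNrf2-TG. All 3 transgenic libraries were below the NTG range and close to each other. The Log2FC was -0.42 ± 0.09 (adjusted p = 0.0133, edgeR), -0.43 without replicate 18 (adjusted p = 0.0408), and the call was lost by a small margin without mNrf2-TG replicate 17 (adjusted p = 0.0501). Irf2bp2, a corepressor that binds Irf2, had 411, 400, 268 and 487 in NTG and 150, 184 and 207 in mNrf2-TG. It was lower in every transgenic library, with a Log2FC of -1.12 ± 0.19 (adjusted p = 0.00467) and -1.13 ± 0.23 without replicate 18 (adjusted p = 0.0197). Its call held whichever library was left out, while the other IRF2-binding proteins were not called (Irf2bp1 0.09, Irf2bpl -0.02). An antisense gene, Gm26759, shares 1039 exon bases with Irf2bp2, and the strand setting of the counting was not stated.

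Irf4, a factor of lymphoid and myeloid cells, had 2.30, 4.50, 13.4 and 9.96 normalized counts in NTG and 25.8, 23.6 and 23.6 in mNrf2-TG. The groups did not overlap, at counts that were low in every library. The Log2FC of 1.67 ± 0.42 (adjusted p = 0.0237, edgeR) missed the threshold without NTG replicate 2 (adjusted p = 0.0663) or without any of mNrf2-TG replicates 17 (0.0746), 18 (0.0606) and 19 (0.0599).

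Irf5, which is prominent in macrophages, had 34.0 to 37.8 in NTG and 49.5, 46.3 and 56.3 in mNrf2-TG, above NTG in every library (Log2FC 0.51 ± 0.16, adjusted p = 0.0558, edgeR, and 0.0431 with the stricter filter). Irf8, a factor of macrophages and dendritic cells, had 27.8 to 35.8 in NTG and 54.9, 57.1 and 35.4 in mNrf2-TG. Its Log2FC of 0.61 ± 0.21 (adjusted p = 0.0769) was called only without mNrf2-TG replicate 19 (0.81, adjusted p = 0.0324). Without replicate 18 neither was called, at 0.57 for Irf5 (adjusted p = 0.0829) and 0.48 for Irf8 (adjusted p = 0.237). The macrophage markers were higher in the same hearts, with a summed level of 5017, 6053 and 4470 normalized counts in replicates 17, 18 and 19. Dendritic cell markers summed to 103, 134 and 103 in these libraries, against 123 to 139 in NTG, with 1 of 6 called higher and 1 lower. The part of either cell type in the levels of these factors was not tested.

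The other IRFs were not called. Irf1 had 213 to 368 normalized counts in NTG and 214, 398 and 234 in mNrf2-TG (Log2FC -0.11, adjusted p = 0.794, edgeR). Irf7, the amplifier of type I interferon production, had 88.2 to 157 in NTG and 67.8, 196 and 98.0 in mNrf2-TG (Log2FC 0.04, adjusted p = 0.941). Irf3, a latent factor activated by nucleic acid sensing, had 116 to 142 and 114 to 129 (Log2FC -0.09, adjusted p = 0.647). Irf1 and Irf7 were highest in replicate 18, and Irf3 was not. Without it the Log2FC was -0.44 for Irf1, -0.49 for Irf7 and -0.04 for Irf3, and none was called.

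**Figure D3:**
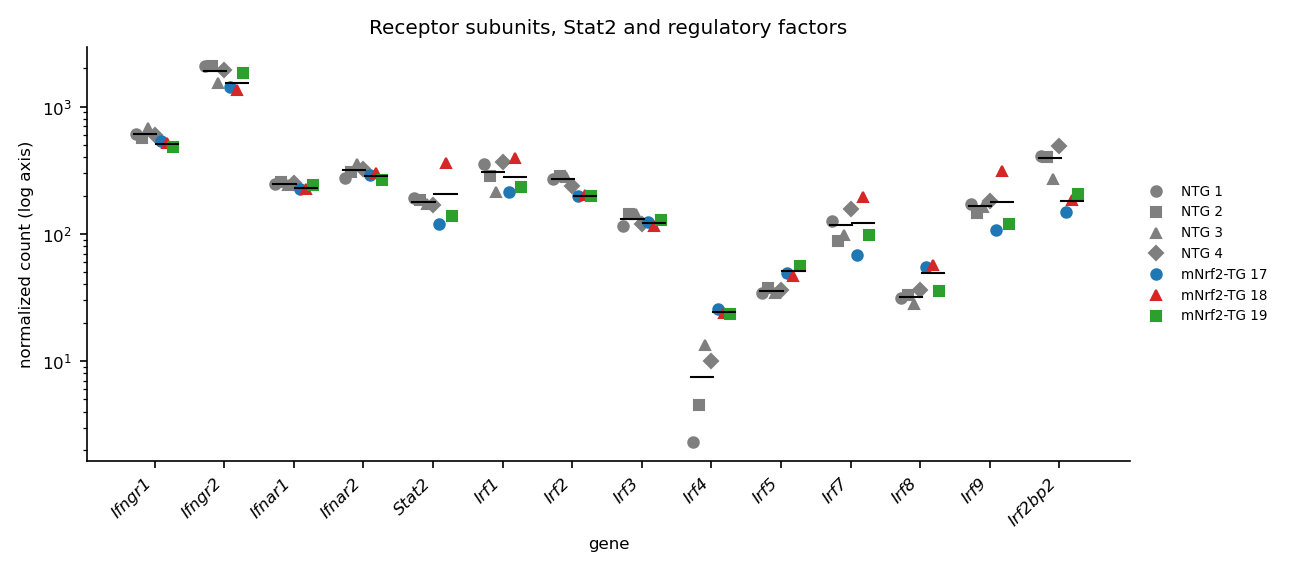
Normalized counts (log axis) of the receptor subunits, Stat2, 8 IRFs and Irf2bp2 in each library, with NTG in grey, mNrf2-TG replicates 17, 18 and 19 in blue, red and green, and black lines at the group means. Stat2 and Irf9 show replicate 18 alone above NTG, Irf2 and Irf2bp2 show all 3 transgenic libraries below NTG, and Irf4 shows all 3 above it, at 23.6 to 25.8 against at most 13.4.

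Many genes of the Ifi200 family, though not all, encode proteins with a HIN domain that binds DNA, and several, such as Ifi204, take part in sensing DNA. The 9 members lie together on chromosome 1, with 446 kb between the first base of Ifi213 and that of Ifi205, and several moved in the same direction in all 3 transgenic libraries. Of the 9, 2 were called higher and 3 lower over all libraries, against 8.48% and 8.73% of all genes tested. Of the same 9, 1 was highest in replicate 18. Without replicate 18, 2 were called higher and 4 lower, against 5.12% and 5.11% of all genes.

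Ifi213 (chr1:173566283-173599274, minus strand) had 2 counts in each of the 4 NTG libraries and 48, 77 and 79 in mNrf2-TG replicates 17, 18 and 19. The library-size-scaled ratio of the summed counts was 33.1, with an exact 95% interval of 16.5 to 77.7 that covers counting error only. The Log2FC was 4.96 ± 0.29 (adjusted p = 6.42e-06, edgeR). Ifi208 (chr1:173673675-173698395, plus strand) had 27.6, 27.9, 6.19 and 23.9 normalized counts in NTG and 180, 169 and 194 in mNrf2-TG. NTG replicate 3 was the lowest and all transgenic libraries were above every NTG library. The Log2FC was 3.07 ± 0.28 (adjusted p = 0.000180), and both calls held whichever library was left out. Without replicate 18 the values were 4.85 for Ifi213 (adjusted p = 7.01e-05) and 3.12 for Ifi208 (adjusted p = 0.000975). The 2 genes share sequence, with 20.8% of the 50-base stretches of Ifi208 and 15.6% of those of Ifi213 found in another gene, each most often in the other.

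Further along the chromosome, Ifi205 and Ifi211 went in the opposite direction. Position alone did not set the directions apart. Ifi209 (Log2FC -0.44) lies between Ifi213 and Ifi208, and Ifi202b (1.36) lies between Ifi211 and Ifi205, and neither was called. Ifi205 had 448, 518, 365 and 337 normalized counts in NTG and 14.0, 202 and 105 in mNrf2-TG, a Log2FC of -1.95 ± 0.51 (adjusted p = 0.0270, edgeR). Ifi211 had 245, 253, 192 and 214 in NTG and 23.7, 115 and 64.4 in mNrf2-TG, a Log2FC of -1.72 ± 0.35 (adjusted p = 0.00958). Both were below NTG in every transgenic library, in the same order of replicates, with 17 lowest and 18 highest. Without replicate 18 the values were -2.76 (adjusted p = 0.0128) and -2.32 (adjusted p = 0.00321). The call of Ifi205 was lost with DESeq2 (adjusted p = 0.0613) and without NTG replicate 1 (0.0640), NTG replicate 2 (0.0709) or mNrf2-TG replicate 19 (0.0840). Ifi211 shares 72.8% of its 50-base stretches with other genes, most often Ifi205, so their counts are not separate measurements.

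Mndal, whose annotated span contains Ifi211 and which is no member by its symbol, had 179 to 288 normalized counts in NTG and 17.2, 156 and 76.2 in mNrf2-TG (Log2FC -1.59 ± 0.46, adjusted p = 0.0393, edgeR). Without replicate 18 it was -2.39 (adjusted p = 0.0112), and the call was lost with DESeq2 (0.0837) and without NTG replicate 1 (0.0893), NTG replicate 2 (0.0939), NTG replicate 4 (0.0698) or mNrf2-TG replicate 19 (0.117). Ifi207 had 261, 301, 333 and 186 in NTG and 121, 211 and 130 in mNrf2-TG, and its groups overlapped. Its Log2FC of -0.81 ± 0.23 (adjusted p = 0.0372) held without replicate 18 (-1.11, adjusted p = 0.0171) and NTG replicate 4, and was lost without NTG replicate 1 (0.0735), NTG replicate 2 (0.0937), NTG replicate 3 (0.0501), mNrf2-TG replicate 17 (0.134) or replicate 19 (0.127). Ifi204 was called without replicate 18 (-1.30, adjusted p = 0.0371) but not over all libraries (-0.93, adjusted p = 0.0662, edgeR). With DESeq2 its adjusted p over all libraries was 0.0184. Ifi203 (-0.52) and Ifi209 (-0.44) were not called with or without replicate 18.

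Ifi202b, which inhibits the DNA sensor Aim2 and whose level is known to differ between inbred strains, split the NTG group. It had 0, 1, 170 and 0 counts in NTG replicates 1 to 4 and 140, 122 and 76 in mNrf2-TG replicates 17, 18 and 19. NTG replicate 3 was thus above all the transgenic libraries while the other NTG libraries were at or near 0. The Log2FC of 1.36 ± 1.10 was not called (adjusted p = 0.432, edgeR). Without NTG replicate 3 it was called at 7.94 (adjusted p = 2.80e-05), a fitted value against libraries at or near 0 that depends on the prior count. The strain origin of this region in each mouse was not tested, nor was its part in the levels of the Ifi200 members and Mndal.

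The promoters of these neighbours hold a shared ISRE-like stretch. The segments below are from the RefSeq windows of GRCm38.p6, with the ISRE core in capitals, and lie at chr1:173599321-173599360 (Ifi213, minus strand), chr1:173673592-173673631 (Ifi208, plus), chr1:173741826-173741865 (Ifi207, minus), chr1:173913059-173913098 (Ifi211, minus) and chr1:174031865-174031904 (Ifi205, minus).
Ifi213: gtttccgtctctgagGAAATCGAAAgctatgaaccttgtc
Ifi208: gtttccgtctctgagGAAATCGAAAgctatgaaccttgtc
Ifi207: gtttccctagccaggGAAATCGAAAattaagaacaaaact
Ifi211: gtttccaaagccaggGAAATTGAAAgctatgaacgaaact
Ifi205: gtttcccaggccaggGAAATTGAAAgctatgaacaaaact

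The segments of Ifi208 and Ifi213, the genes called higher, were identical over 40 of 40 bases. Those of Ifi205 and Ifi211, called lower, were identical in 37 of 40, and the segment of Ifi207, also lower, shared 25 of 40 bases with that of Ifi208. Other pairs, among them Ifi207 with Ifi205 or Ifi211, were not compared. Ifi203, which was not called and is not printed, holds the same core letters as Ifi208 in its window. No link between these letters and the direction of change was tested.

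**Figure D4:**
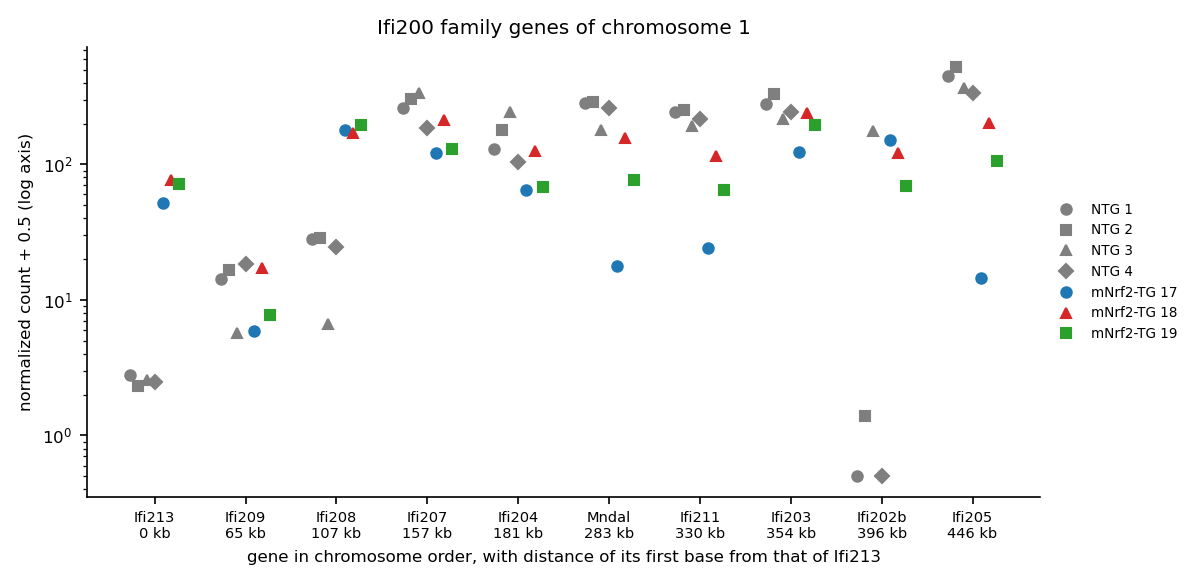
Normalized counts plus 0.5 (log axis) of the 9 Ifi200 members and Mndal in each library, in chromosome order with the distance in kb of each gene's first base from that of Ifi213. NTG is grey and mNrf2-TG replicates 17, 18 and 19 are blue, red and green; the transgenic points lie above NTG at Ifi213 and Ifi208 and below NTG at Mndal, Ifi211 and Ifi205, and the grey triangle of NTG replicate 3 lies with the transgenic points at Ifi202b.

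Ifit proteins bind viral RNA and Ifitm proteins block viral entry at membranes. Of these 11 members, 1 was called, and it was lower, against 8.73% of all genes called lower. Ifitm2 had 559, 508, 623 and 553 normalized counts in NTG and 405, 441 and 408 in mNrf2-TG. Every transgenic library was below every NTG library, with a Log2FC of -0.42 ± 0.09 (adjusted p = 0.00976, edgeR), or -0.46 without replicate 18 (adjusted p = 0.0233), and the call held whichever library was left out. The predicted gene Gm45717 shares 268 exon bases with Ifitm2 on the same strand. Of the 50-base stretches of Ifitm2, 48.5% occur in another gene, most often Gm45717, so its separate level is uncertain.

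Ifitm3 had 622, 537, 636 and 621 in NTG and 449, 688 and 486 in mNrf2-TG. Replicate 18 was the highest of the 7 and replicates 17 and 19 the lowest, so the Log2FC went from -0.16 ± 0.14 (adjusted p = 0.467, edgeR) to -0.37 ± 0.10 (adjusted p = 0.0458) without replicate 18. Ifit1 and Ifit3, which the rule for named genes did not select and which are given here after their values were seen, behaved likewise. Their Log2FC values were -0.18 and 0.01 over all libraries and -0.76 (adjusted p = 0.0493) and -0.59 (adjusted p = 0.0374) without replicate 18. Ifit3 shares 51.2% of its 50-base stretches with other genes, most often its near copy Ifit3b. Over the 11 genes the median Log2FC was -0.16, and -0.45 without replicate 18.

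None of the 8 oligoadenylate synthetases, a family of which some make the second messenger that activates RNase L, was called over all libraries. Their Log2FC values ran from -0.42 to 0.64. Without replicate 18, Oas2 (-0.84, adjusted p = 0.0328, edgeR) and Oasl2 (-0.74, adjusted p = 0.0320) were called lower. The 3 Isg genes, among them the ubiquitin-like modifier Isg15, were not called with or without replicate 18 (-0.37 to -0.06 over all libraries).

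Among the other Ifi genes, Ifi44l, an antiviral response gene, had 0 counts in all 4 NTG libraries and 3, 13 and 8 in mNrf2-TG replicates 17, 18 and 19. Against a floor of 3 counts per library its mean count in mNrf2-TG was at least 2.67-fold higher, with replicate 17 at the floor. It was called (adjusted p = 0.0154, edgeR, and 0.0465 without replicate 18). DESeq2 gave Ifi44l no adjusted p, and the stricter filter on low counts removed it. Its neighbour in name, Ifi44, had 73.6, 69.3, 71.2 and 115 normalized counts in NTG and 58.1, 117 and 64.4 in mNrf2-TG, with no clear direction (Log2FC -0.04 ± 0.27, adjusted p = 0.940). The other 6 genes of this group were not called either way.

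**Figure D5:**
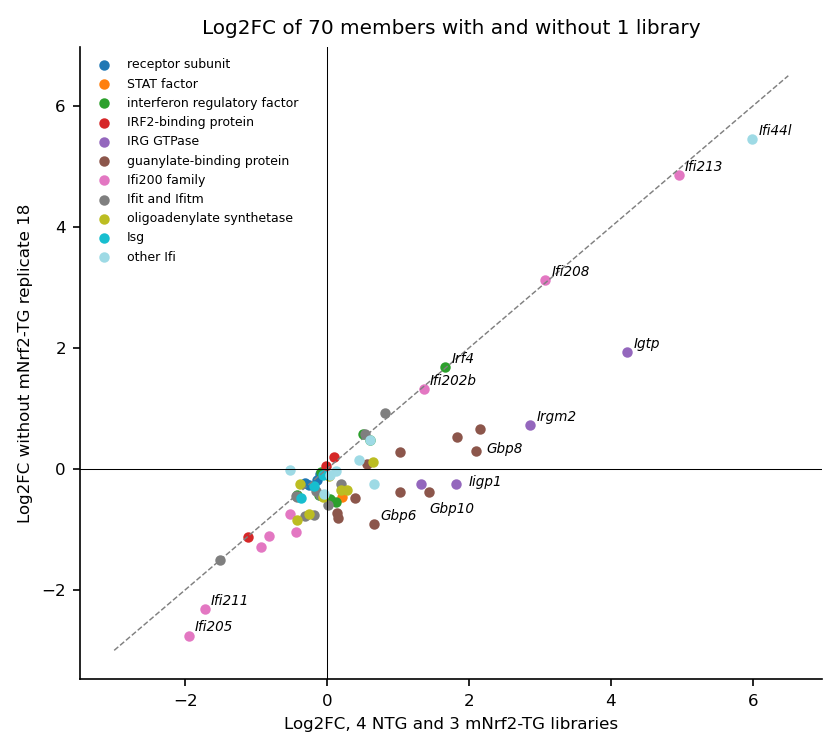
Log2FC of each of 70 members over all 7 libraries (x axis) against its Log2FC without mNrf2-TG replicate 18 (y axis), coloured by role, with the dashed line at equal values. Ifi213 (4.96 and 4.85), Ifi208 and Irf4 lie near the line, Igtp (4.23 and 1.93), Irgm2 and Iigp1 lie well below it, and Ifi205 and Ifi211 lie below it at negative values (Ifi205 at -1.95 and -2.76).

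The rest of the pathway was read from 5 lists that exclude the members. None of the 11 interferon ligand genes listed was measured in these hearts. Of 99 measured genes in the other lists, 4 were called higher and 13 lower, against 8.48% and 8.73% of all genes tested. These 17 calls became 9 without NTG replicate 1, 9 without NTG replicate 2, 10 without mNrf2-TG replicate 17 and 10 without mNrf2-TG replicate 19. Among 7 receptor kinases and related subunits, Tyk2, a kinase of the type I receptor, was higher (Log2FC 0.43, adjusted p = 0.0155, edgeR), and Jak2, a kinase of the interferon gamma receptor (-0.39, adjusted p = 0.0329), and Il10rb, shared with the type III receptor (-0.72, adjusted p = 0.0319), were lower. Tyk2 was not called without mNrf2-TG replicate 19 (adjusted p = 0.0611). Without replicate 18 Jak2 (0.0883) and Il10rb (0.108) were not called, nor were they without NTG replicate 1 (0.0549 and 0.0837), NTG replicate 2 (0.0888 and 0.0882) or mNrf2-TG replicate 17 (0.0811 and 0.120), and Jak2 was also lost without mNrf2-TG replicate 19 (0.102) and Il10rb without NTG replicate 4 (0.0697). Among 14 negative regulators, 4 were lower: Socs2 (-0.61), Cish (-0.69), Pias2 (-0.34) and Trim24 (-0.32). Without replicate 18 only Socs2 of these was called, while Cish (adjusted p = 0.0523), Pias2 (0.141) and Trim24 (0.0783) were not. Socs2 held whichever library was left out, Cish was also lost without mNrf2-TG replicate 17 (0.0559), Pias2 held only without NTG replicate 4 and Trim24 only without NTG replicate 3. Among 19 sensors and adaptors, Mavs, the adaptor of RNA sensing on mitochondria (-0.54, adjusted p = 0.00317), and Sting1, the adaptor of DNA sensing (-0.61, adjusted p = 0.0286), were lower. Mavs held whichever library was left out, and Sting1 was lost without NTG replicate 1 (0.0731), NTG replicate 2 (0.0520), mNrf2-TG replicate 17 (0.102) or replicate 18 (0.0822).

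Among 60 further interferon-stimulated genes, 3 were called higher and 5 lower, against 8.48% and 8.73% of all genes. The immunoproteasome subunits Psmb9 (1.63) and Psmb10 (0.63) and Epsti1 (1.22) were higher, and the kinase Cmpk2 (-0.73), Slfn5 (-0.56), Helz2 (-0.54), the lectin Lgals9 (-0.52) and Mndal (-1.59) were lower. The calls of Slfn5 and Lgals9 held whichever library was left out. Without replicate 18 Helz2 (adjusted p = 0.0646) and Epsti1 (0.0751) were not called. Psmb9 was lost without NTG replicate 2 (0.0502), Psmb10 without NTG replicate 1 (0.0520) or 2 (0.0522), Cmpk2 without mNrf2-TG replicate 19 (0.0541), Helz2 also without replicate 19 (0.0503), and Epsti1 also without NTG replicate 1 (0.0680) or 2 (0.0771) or mNrf2-TG replicate 17 (0.0926) or 19 (0.0517). The median Log2FC of these genes was 0.12 over all libraries and -0.28 without replicate 18. Without it 2 were called higher and 8 lower, against 5.12% and 5.11% of all genes. Over the lists, 43 of 92 genes with a mean count of 10 or more were highest in replicate 18 (46.7%).

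Interferon gamma is made by T and NK cells. The 9 measured T and NK cell markers summed to 11.5 to 20.7 normalized counts in NTG and to 18.3, 27.6 and 10.9 in mNrf2-TG replicates 17, 18 and 19, and none was called. Replicate 18 had the highest sum and was the highest library for 5 of the 9 markers, all of them at under 4 normalized counts there. Macrophage markers were also highest in replicate 18, at 6053 against 5017 in replicate 17, and the part of either cell type in the levels of the members was not tested.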

How the data were processed

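RNA-seq was made from whole hearts of 4 NTG and 3 mNrf2-TG mice with a stranded mRNA kit and 50-base single reads. The authors aligned reads with Novoalign 2.08.01 per the labels, and deposited raw counts per gene, whose counting program and strand setting are not given in the sources used here. The methods name both a human and a mouse build for the alignment. The deposited signal column (the mean of DESeq2-normalized counts, DESeq2 1.32.0 per the labels) was used only to check the join, and the table's fold change and p columns, the authors' own comparison, were not used, nor were the rlog values. Of 14665 entries, 24 repeats of an Entrez gene, identical in counts, were removed. Members and lists were chosen with earlier results of these data known.

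Genes with a summed count above 1 were tested with edgeR 4.0.16 (R 4.3.3; TMM factors, glmQLFit, glmQLFTest, no covariates, Benjamini-Hochberg adjustment). The SE of a Log2FC is its size over the square root of F. On simulated counts, 94% of 200 genes changed by a Log2FC of 1.5 were recovered among 14637. Alternatives were DESeq2 1.42.0, limma-voom (limma 3.58.1), DESeq2 size factors, library totals, filterByExpr, no filter, and leaving out each library. Replicates are single mice, so p-values measure the spread between mice. Depth was 6534684 to 8405857 counts per library, and intervals and floors cover counting error only.

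Named with values were all members with an adjusted p under 0.05, all receptor subunits, STAT factors and numbered IRFs, the 5 other members of highest mean level, members with an outlying NTG library, and pathway-list genes with an adjusted p under 0.05; other members named in the text were chosen after their values were seen. The levels of 2 members are included in the counts and medians but are not reported here. Positions and exon lengths are from GENCODE M21 (GRCm38), with an entry for all 72 members.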

Additional observations from a re-analysis of the deposited data

Results flagged for a closer look

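In 5 of 63 members tested, 1 NTG library lay apart from the other 3 by Dixon's criterion, which chance alone meets in about 1 of 20 genes. Ifi202b was at 175 normalized counts in NTG replicate 3 and at 0.00 to 0.90 in the others. Gbp3 was at 164 in NTG replicate 1, against 109 in each of the others, and Ifi44 at 115 in NTG replicate 4, against 69.3 to 73.6. Ifitm3 was at 537 in NTG replicate 2, against 621 to 636, and Gbp2 at 236 in NTG replicate 4, against 319 to 335. The 5 genes were spread over all 4 NTG libraries. The criterion was not applied to the transgenic group of 3 libraries.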

How the results depend on the processing

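Leaving out single libraries moved the member totals most, and mNrf2-TG replicate 18 moved them most of all. Members called ranged over 8 (without NTG replicate 2) to 21 across the 7 refits, members with an unadjusted p under 0.05 and a fold above 2 over 10 to 19, the median Log2FC of the members over -0.26 to 0.28, and members without overlap over 16 to 36. Genes called over the pathway lists ranged over 9 to 20, with 17 over all libraries. Without replicate 18 the member totals were 21, 10, -0.26 and 36. Under the other scalings, filters and tests the counts stayed within 1.5 times those over all libraries, and the median was between -0.03 and 0.10. Among the members named by rule, Log2FC signs turned without replicate 18 for Gbp2 (-0.81), Iigp1 (-0.25), Irf7 (-0.49), Irf9 (-0.54) and Stat2 (-0.46). For these, the other refits that left out a library reached 0.52, 2.28, 0.32, 0.38 and 0.48. Signs also turned without replicate 18 for members outside that rule, such as Irgm1 and Gbp6. With limma-voom Gbp2 (-0.16), Irf7 (-0.045) and Irf9 (-0.048) turned. Ifi44 ranged from -0.42 to 0.17 over the same refits, positive without NTG replicate 4, mNrf2-TG replicate 17 (0.14) or 19 (0.10), and Irf1 from -0.44 to 0.053, positive without mNrf2-TG replicate 17 or 19 (0.015). Irf7 was also negative without NTG replicates 2 (-0.069) or 3 (-0.030). None of these was called over all libraries, and the cause was not tested. With limma-voom Irgm2 was not called (Log2FC 1.89, adjusted p = 0.123) and Ifi202b was (5.21, adjusted p = 0.0233). DESeq2 gave no p for 6 members. No paired analysis was possible because the groups share no replicate numbers.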

Other observations

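Some IRG GTPases carry predicted-gene symbols that the naming pattern did not match, and their values, given here after they were seen, also stood out in mNrf2-TG replicate 18. F830016B08Rik, listed in RefSeq as Ifgga4 beside Iigp1 (Ifgga1), had 163, 184, 122 and 146 normalized counts in NTG replicates 1 to 4 and 178, 5907 and 182 in mNrf2-TG replicates 17, 18 and 19. Gm4841, listed as Ifgga3, had 2.70 to 17.2 in NTG and 8.61, 1286 and 16.3 in mNrf2-TG. Gm4951, listed as Ifgga2, had 12.4 to 31.0 in NTG and 17.2, 148 and 23.6 in mNrf2-TG. Gm12185, listed as Irgb2b1, had 6.30 to 14.9 in NTG and 10.8, 61.1 and 9.98 in mNrf2-TG. In all of these genes replicate 18 was far above the other libraries, and replicates 17 and 19 were within the NTG range.

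Ciita and Cd74 were among the genes more than 2-fold above every other library in replicate 18, and are given here after their values were seen. Ciita, the master regulator of class II genes, had 3.09 to 17.2 normalized counts in NTG and 8.61, 94.6 and 9.08 in mNrf2-TG. Cd74, the invariant chain, had 388 to 1150 in NTG, with replicate 3 lowest, and 563, 3501 and 631 in mNrf2-TG. Replicate 18 was the only transgenic library above the NTG range for either gene.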
